A study of Mus musculus with 4 samples.

Results

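The genes described here are 36 genes of glucose breakdown and of the response to low oxygen, in cultured mouse oesophageal cells that carry a tumour-derived change in the transcription factor NRF2. They were picked by symbol from the 24444 genes of the deposited expression table, and all 36 symbols are in it. The glycolytic arm holds 26 genes, from glucose uptake to lactate export. The hypoxia arm holds 10 genes, 3 regulators of hypoxia-inducible factor (HIF) and 7 of its other targets.

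Poly(A) RNA was sequenced in 4 libraries. The E79Q group (2 libraries, replicates 1 and 2, titled Nrf2_HET) came from C57BL/6J material with CRISPR/Cas9 microinjection of an Nfe2l2-E79Q cassette, Nfe2l2 being the gene of NRF2. The wild-type group (2 libraries, replicates 1 and 2, titled Nrf2_WT) came from C57BL/6J material with no cassette and no treatment. The series title speaks of a conditional mouse, and the sources used here give neither age nor sex, nor how the allele was switched on, nor whether each library is a separate animal or culture. Every column name carries the word SV40, which the labels do not explain. The p-values below therefore measure the spread between these libraries, which may be technical.

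In glycolysis, glucose enters through transporters such as GLUT1, is trapped and split by the upper enzymes, and is turned into pyruvate by the lower enzymes with a gain of ATP. Pyruvate is then passed to the mitochondria or reduced to lactate, which leaves the cell through monocarboxylate transporters. HIF-1 is made of an oxygen-sensitive alpha subunit and ARNT. In normal oxygen, prolyl hydroxylases mark the alpha subunit for degradation, and in low oxygen it accumulates and raises glycolytic, angiogenic and pH-regulating genes through short hypoxia response elements. The oesophageal lining is a stratified epithelium without vessels of its own. NRF2 is the main driver of antioxidant and detoxification genes and is held in check by KEAP1.

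Values are the authors' variance-stabilised log2 values. Differences are E79Q minus wild type on that scale, with the limma standard error over 2 replicate pairs, and a gene was called at a limma adjusted p under 0.05 over the 10857 genes high enough to test. The table had been centred on the replicate number in each gene, so the spread of the E79Q values mirrors that of the wild-type values and groups overlap only where the pairs differ in sign. Fold ratios are ratios of mean normalised counts obtained by inverting the variance stabilisation, because the log2 scale understates changes of low genes. The depth of each library is not known, and the normalised counts sum to between 13.48 and 13.93 M per library. Keratinocyte markers mark these cells as epithelial, with Krt5 at 15.79 and 15.84 in E79Q and 15.85 and 15.80 in wild type. Of the markers of other cell types, Emcn (endothelial), Ptprc (leukocyte) and Lum and Dpt (fibroblast) sat at the floor of the table in all 4 libraries, but others did not. Vim lay at 8.09 and 8.12 in E79Q and at 9.75 and 9.71 in wild type, Col1a1 at 7.83 and 7.75 in E79Q and at 9.04 and 9.12 in wild type, and Cd68 at 9.22 and 9.30 in E79Q and at 8.63 and 8.54 in wild type. The NRF2 target Nqo1 lay at 10.88 and 10.87 in E79Q and at 8.64 and 8.65 in wild type, whereas Nfe2l2 itself was not called (-0.10 ± 0.05, limma adjusted p = 0.154), and its level does not check a substitution.

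The members moved in both directions. Of 33 members high enough to test, 26 (78.8%) were called, 13 higher and 13 lower in E79Q cells. Of all genes tested 40.4% were called, 21.5% higher and 18.9% lower. The limma standard error was smaller in abundant genes, such as 0.04 for Gapdh against 0.07 for Ldhb. Several members are abundant, and these shares were not matched for level. The transcripts of the glucose transporter gene Slc2a1, both hexokinases, 2 of 3 PFKFB genes, Hif1a and the secreted factors Vegfa and Adm were higher. Those of triose phosphate isomerase, most enzymes of the lower pathway, both lactate dehydrogenase subunits and the lactate exporter gene Slc16a3 were lower. The glycolytic arm had 8 members called higher and 12 lower of 25 tested, with a median difference of -0.03, and the hypoxia arm had 5 higher and 1 lower of 8, with a median of 0.41, beside a median of 0.01 over all genes tested. With its low members Car9 and Ankrd37, both lower in E79Q, the median of the hypoxia arm was 0.17. The values of the E79Q and wild-type libraries did not overlap in 27 of the 33 (81.8%), close to the 79.2% of all genes tested. Among the called members the median absolute difference was 0.34, against 0.25 among all called genes. In bulk RNA, fewer cells of a type and less RNA per cell cannot be told apart.

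**Figure D1:**
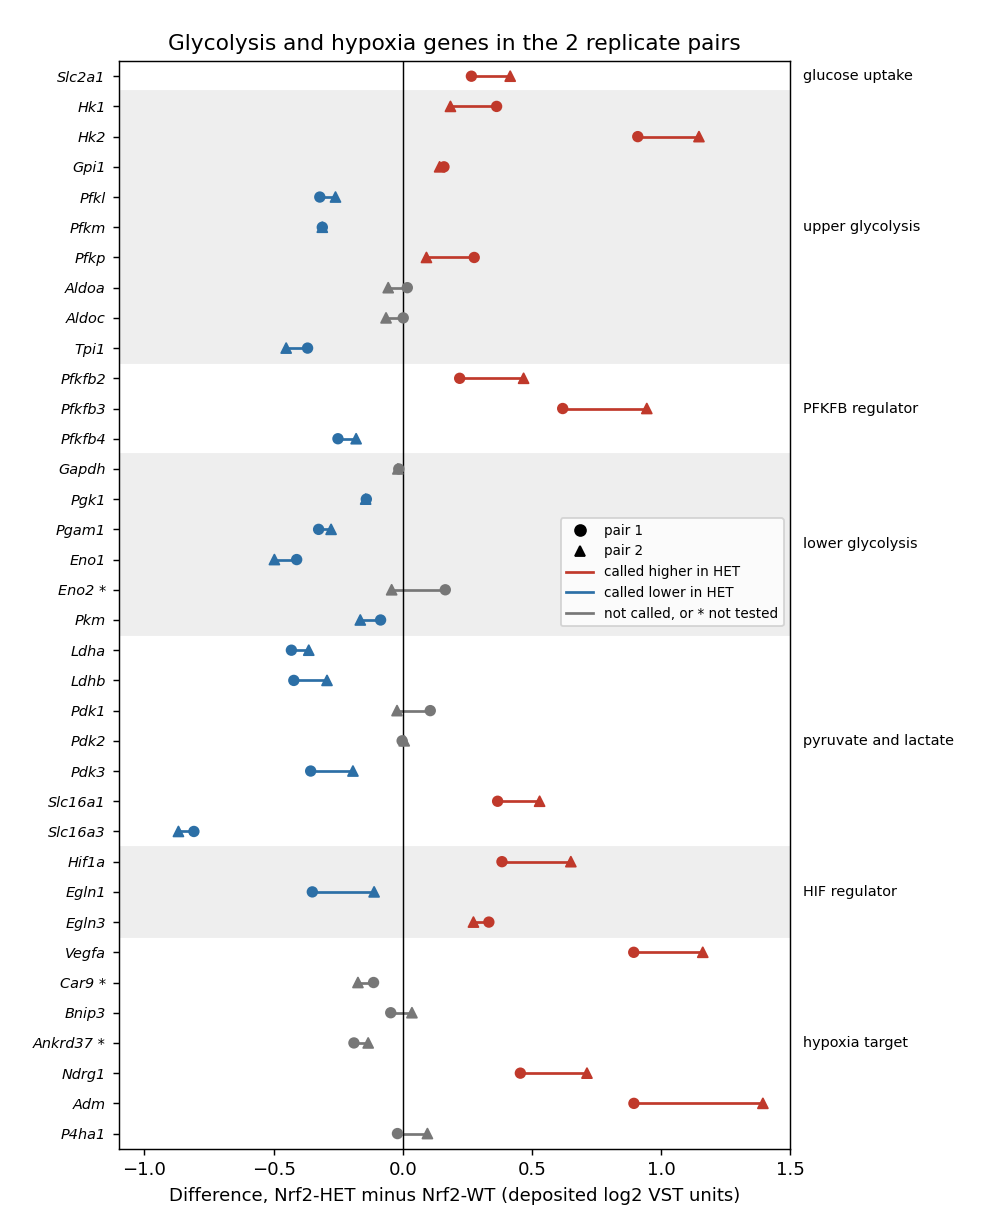
Difference between E79Q (HET) and wild-type (WT) libraries for all 36 genes, in deposited log2 units, with replicate pair 1 as circles and pair 2 as triangles and genes grouped by role from uptake at the top to hypoxia targets at the bottom. Called genes are coloured by direction, and the largest rises (Adm, Hk2, Vegfa, Pfkfb3) lie at 0.62 or above in both pairs, while Slc16a3 lies at -0.81 and -0.87.

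The start regions of 5 genes are shown as examples of both directions. Hk2 and Adm are among the largest rises, Eno1 is a lower-pathway enzyme that fell, and Slc16a1 and Slc16a3 are the lactate transporter genes, of which Slc16a1 rose and Slc16a3 fell. Each is the RefSeq window (build GRCm38.p6) of 300 bases, from 250 before to 50 after the gene's start, written 5′ to 3′ on the gene's strand. The windows lie at chr6:82774405-82774704 on the minus strand for Hk2, chr3:104638414-104638713 on the plus strand for Slc16a1, chr7:110627407-110627706 on the plus strand for Adm, chr11:120948817-120949116 on the plus strand for Slc16a3 and chr4:150236458-150236757 on the plus strand for Eno1, the first of its 3 windows. Capitals mark the core of the hypoxia response element, ACGTG or GCGTG on either strand, and the antioxidant response element bound by NRF2, TGACNNNGC on either strand.
Hk2: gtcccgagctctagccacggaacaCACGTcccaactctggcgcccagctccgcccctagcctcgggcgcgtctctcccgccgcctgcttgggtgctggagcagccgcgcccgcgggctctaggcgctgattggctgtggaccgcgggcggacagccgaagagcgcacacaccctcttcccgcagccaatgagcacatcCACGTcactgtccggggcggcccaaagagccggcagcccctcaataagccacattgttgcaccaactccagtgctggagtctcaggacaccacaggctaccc
Slc16a1: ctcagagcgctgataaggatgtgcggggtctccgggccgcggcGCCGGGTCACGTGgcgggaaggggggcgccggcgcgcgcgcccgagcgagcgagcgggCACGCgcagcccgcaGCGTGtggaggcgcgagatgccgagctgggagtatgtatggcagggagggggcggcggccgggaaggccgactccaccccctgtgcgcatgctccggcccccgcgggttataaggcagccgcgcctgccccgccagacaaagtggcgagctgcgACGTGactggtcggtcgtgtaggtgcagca
Adm: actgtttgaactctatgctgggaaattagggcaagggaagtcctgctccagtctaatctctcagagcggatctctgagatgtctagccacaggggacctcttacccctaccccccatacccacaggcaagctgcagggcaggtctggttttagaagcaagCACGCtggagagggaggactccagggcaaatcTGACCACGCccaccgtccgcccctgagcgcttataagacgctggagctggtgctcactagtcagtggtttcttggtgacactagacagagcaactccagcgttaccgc
Slc16a3: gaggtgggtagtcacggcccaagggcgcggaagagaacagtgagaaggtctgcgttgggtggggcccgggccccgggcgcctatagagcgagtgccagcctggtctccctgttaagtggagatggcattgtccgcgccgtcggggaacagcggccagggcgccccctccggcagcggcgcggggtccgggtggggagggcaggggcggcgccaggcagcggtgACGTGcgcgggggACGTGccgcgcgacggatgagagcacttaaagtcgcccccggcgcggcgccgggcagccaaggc
Eno1: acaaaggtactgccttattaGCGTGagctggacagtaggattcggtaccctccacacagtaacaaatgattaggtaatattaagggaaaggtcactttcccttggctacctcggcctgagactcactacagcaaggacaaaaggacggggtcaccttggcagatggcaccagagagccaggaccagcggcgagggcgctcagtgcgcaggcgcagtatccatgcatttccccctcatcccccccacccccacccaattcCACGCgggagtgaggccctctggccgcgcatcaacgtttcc
Matches to the hypoxia core were found in all 5 windows, in those of the risers and of the fallers alike. Hk2 held 2, at bases 25 to 29 and 199 to 203, Slc16a3 held 2, at bases 224 to 228 and 237 to 241, and Eno1 held 2, at bases 21 to 25 and 260 to 264. Slc16a1 held 5, of which those at bases 51 to 55 and 52 to 56 are the same palindrome read on both strands. The antioxidant element matched once in Slc16a1, at bases 44 to 52, and once in Adm, at bases 193 to 201, and each of these matches overlaps a hypoxia core. Over the 35 members with a RefSeq window, 42 of 52 windows (80.8%) held a hypoxia core, compared with 63.9% of the windows of all genes tested and 43.8% of all RefSeq windows. The share was 82.4% of 17 windows in members called higher and 85.0% of 20 windows in members called lower. The antioxidant element was in 5 of the 52 (9.62%), in 3 of the 17 (17.6%) and in 0 of the 20, against 14.4% of the windows of genes tested. These matches describe letters in a short window and no binding was measured.

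The glucose transporter gene was higher in E79Q cells. Slc2a1, which encodes GLUT1, the main glucose transporter of most epithelia, lay at 11.61 and 11.69 in the E79Q libraries and at 11.35 and 11.27 in the wild-type libraries. The groups did not overlap, and the difference was 0.34 ± 0.05 (limma adjusted p = 6.97e-05), a 1.29-fold ratio of normalised counts.

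Both hexokinases, which trap glucose as glucose 6-phosphate, were higher in E79Q cells, Hk2 far more than Hk1. Hk2, the inducible isoform that binds mitochondria, lay at 10.82 and 10.94 in E79Q and at 9.92 and 9.80 in wild type. All E79Q values were above all wild-type values, by 0.91 in pair 1 and 1.15 in pair 2, and the difference was 1.03 ± 0.06 (limma adjusted p = 3.18e-09), a 2.38-fold ratio. This was the 41st highest difference among all 10857 genes tested. Hk1, the broadly expressed isoform, rose by 0.27 ± 0.05 (limma adjusted p = 0.000891). The rise of Hk2 exceeded that of Hk1 by 0.55 in pair 1 and by 0.96 in pair 2, a contrast in which gene length cancels. This and the other contrasts between isoforms were not tested.

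The next steps of the upper pathway moved in both directions. Gpi1, phosphoglucose isomerase, rose by 0.15 ± 0.04 (limma adjusted p = 0.0145), a call lost without the trend in the prior variance (adjusted p = 0.0543). Among the 3 subunits of phosphofructokinase 1, the committing enzyme, the platelet-type Pfkp rose by 0.18 ± 0.05, while the liver-type Pfkl and the muscle-type Pfkm fell by 0.29 ± 0.05 and 0.31 ± 0.06. Pfkp therefore gained on Pfkl by 0.60 in pair 1 and 0.35 in pair 2. The call of Pfkp (limma adjusted p = 0.0144) was lost without the replicate block (adjusted p = 0.0594).

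The aldolases, which split fructose 1,6-bisphosphate, differed by less than their spread. Aldoa was at -0.02 ± 0.04 and Aldoc at -0.03 ± 0.06, with overlapping groups in both. Tpi1, which interconverts the resulting trioses, lay at 12.38 and 12.34 in E79Q and at 12.75 and 12.79 in wild type, without overlap. It fell by 0.41 ± 0.05 (limma adjusted p = 3.37e-06), to 0.744 of the wild-type normalised count.

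The bifunctional PFKFB enzymes make and remove fructose 2,6-bisphosphate, the strongest activator of phosphofructokinase 1, and their 3 genes did not move alike. Pfkfb3, the isoform with the highest kinase activity relative to phosphatase, lay at 10.33 and 10.49 in E79Q and at 9.71 and 9.55 in wild type. Both E79Q values were well above both wild-type values. It rose by 0.78 ± 0.07 (limma adjusted p = 2.98e-07), a 2.0-fold ratio. Pfkfb2, first described in heart, rose by 0.34 ± 0.06, and Pfkfb4, first described in testis, fell by 0.22 ± 0.07 (limma adjusted p = 0.0243). Pfkfb3 gained on Pfkfb4 by 0.87 in pair 1 and 1.12 in pair 2.

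In the lower pathway, 4 of 5 tested members were called lower, in a table where 18.9% of all genes tested were. The calls of Pgk1 and Pkm among them depended on the settings, as given below. Of these members 0 rose, also 0 at an unadjusted p under 0.05 in limma with or without the replicate block. Eno1, the main enolase, lay at 12.22 and 12.18 in E79Q and at 12.63 and 12.67 in wild type, without overlap. It fell by 0.45 ± 0.05 (limma adjusted p = 1.21e-06), to 0.719 of the wild-type normalised count. The table also lists Eno1b, a near-identical copy, at 11.77 and 11.72 in E79Q and 12.22 and 12.27 in wild type (-0.49 ± 0.05), so how reads were divided between these copies is uncertain. Pgam1, phosphoglycerate mutase, fell by 0.30 ± 0.05.

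Smaller falls were measured in Pgk1, phosphoglycerate kinase, by 0.14 ± 0.04 (limma adjusted p = 0.0164), and in Pkm, pyruvate kinase of muscle and proliferating cells, by 0.13 ± 0.04 (limma adjusted p = 0.0338). Pgk1 was not called without the trend in the prior variance (adjusted p = 0.0661). Pkm was not called after quantile normalization (-0.03, adjusted p = 0.253), without the trend (adjusted p = 0.108) or without a filter on low values (adjusted p = 0.0505). Gapdh, glyceraldehyde 3-phosphate dehydrogenase and a common reference gene, lay at 14.72 and 14.71 in E79Q and at 14.73 and 14.73 in wild type. Its difference of -0.02 ± 0.04 was not called (limma adjusted p = 0.778). Eno2, the neuronal enolase, was too low to test, at 7.72 and 7.61 in E79Q and 7.55 and 7.66 in wild type. Many genes of this pathway, Gapdh, Pgk1, Ldha and Tpi1 among them, have processed pseudogenes, and the sources used here do not say how reads shared with these were counted.

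**Figure D2:**
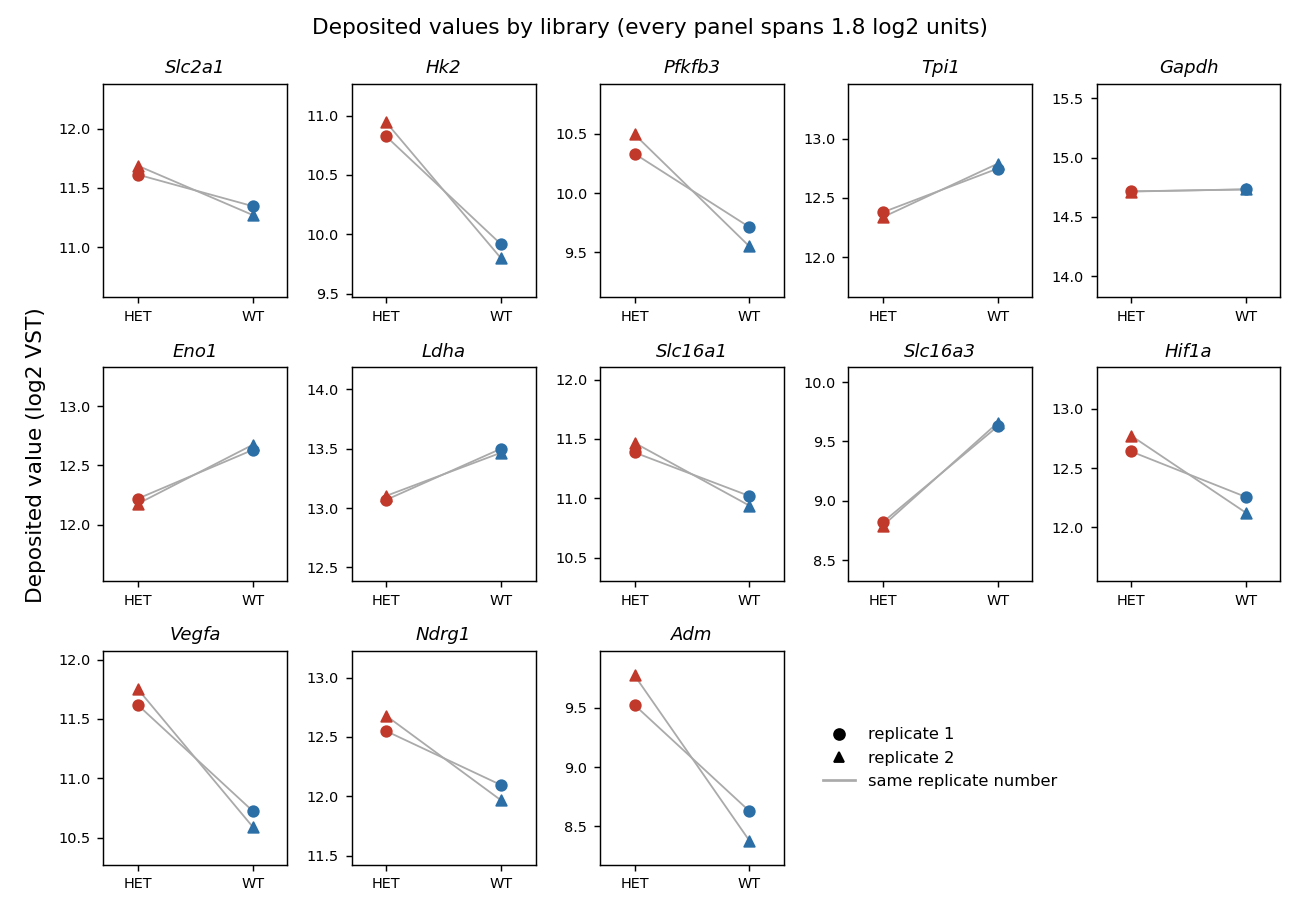
Deposited log2 values of 13 members in each library, E79Q (HET) left of wild type (WT) in every panel, circles for replicate 1, triangles for replicate 2, and grey lines joining libraries of the same number. The E79Q points of Hk2, Pfkfb3, Vegfa and Adm lie above the wild-type points, those of Tpi1, Eno1, Ldha and Slc16a3 lie below them, and those of Gapdh differ by 0.02.

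At the fate of pyruvate, both lactate dehydrogenase genes fell and the 2 lactate transporters moved in opposite directions. Ldha, the muscle-type subunit that favours lactate formation, lay at 13.07 and 13.10 in E79Q and at 13.50 and 13.47 in wild type. The groups did not overlap, and it fell by 0.40 ± 0.04 (limma adjusted p = 3.37e-06). Ldhb, the heart-type subunit, fell by 0.36 ± 0.07. On the log2 scale the 2 subunits differed from each other in their change by no more than 0.07 in either pair. That scale understates the change of the much lower Ldhb. In normalised counts Ldha fell to 0.754 of wild type and Ldhb to 0.604.

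Slc16a1 encodes MCT1, a transporter of lactate and pyruvate found in most tissues, and lay at 11.39 and 11.47 in E79Q and at 11.02 and 10.94 in wild type. It rose by 0.45 ± 0.05 (limma adjusted p = 6.24e-06), a 1.41-fold ratio. Slc16a3 encodes MCT4, the lactate exporter of strongly glycolytic cells and a HIF-1 target, and lay at 8.82 and 8.79 in E79Q and at 9.63 and 9.66 in wild type. Its values in both E79Q libraries were far below those of both wild-type libraries. It fell by 0.84 ± 0.06 (limma adjusted p = 4.47e-08), to 0.406 of the wild-type normalised count, the 59th lowest difference among all genes tested. Slc16a1 gained on Slc16a3 by 1.18 in pair 1 and by 1.40 in pair 2, more than any other contrast computed between isoforms of a step.

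The pyruvate dehydrogenase kinases, which inactivate the mitochondrial pyruvate dehydrogenase complex, showed 1 call among 3 genes. Pdk3 fell by 0.27 ± 0.06 (limma adjusted p = 0.00243). Pdk1, a HIF-1 target, was at 0.04 ± 0.06 and Pdk2 at 0.0015 ± 0.07, with overlapping groups in both. Pdk3 and Pgk1 are X-linked, and the X-linked transcript Xist lay at 7.30 and 7.12 in E79Q and at 11.99 and 12.17 in wild type. The Y-linked gene Ddx3y lay at 10.05 and 10.19 in E79Q and at 9.65 and 9.51 in wild type. Of the other Y-linked genes, Uty rose by 0.31 ± 0.07. Kdm5d (0.13 ± 0.06, limma adjusted p = 0.0988) and Eif2s3y (0.06 ± 0.06, limma adjusted p = 0.472) were not called. Eif2s3y lay at 9.87 and 9.92 in E79Q and at 9.86 and 9.81 in wild type, so Y-linked transcripts were present in both groups. Over the 325 X-linked genes tested other than Xist, 41 were called higher and 67 lower (20.6% lower), with a median of -0.02. Over 10229 genes tested on other chromosomes 18.9% were lower, with a median of 0.01. The part of the sex chromosome difference in the values of the members, Pdk3 and Pgk1 included, was not tested.

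Among the regulators of HIF, the gene of the oxygen-sensitive subunit itself was higher. Hif1a lay at 12.64 and 12.77 in E79Q and at 12.26 and 12.12 in wild type, without overlap. It rose by 0.52 ± 0.06 (limma adjusted p = 2.61e-06), a 1.46-fold ratio of normalised counts, and HIF-1 alpha protein was not measured. The prolyl hydroxylase genes moved apart. Egln3, which encodes PHD3 and is itself induced by HIF, rose by 0.30 ± 0.07 (limma adjusted p = 0.00214), and Egln1, which encodes PHD2, the main oxygen sensor, fell by 0.23 ± 0.06 (limma adjusted p = 0.00812). The call of Egln1 was lost without the replicate block (adjusted p = 0.0628), and its difference was -0.35 in pair 1 and -0.11 in pair 2.

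Of the other hypoxia targets 5 were high enough to test, 3 rose and 0 fell, also 0 at an unadjusted p under 0.05 in limma with or without the replicate block. Over all genes tested 21.5% were called higher. Adm encodes adrenomedullin, a vasodilating peptide, and lay at 9.52 and 9.77 in E79Q and at 8.63 and 8.38 in wild type. The E79Q values were higher in both pairs, by 0.89 and 1.39, and the difference was 1.14 ± 0.09 (limma adjusted p = 7.46e-08). Its 3.67-fold ratio was the highest among the tested members, and its difference the 34th highest of all genes tested.

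Vegfa, the chief angiogenic growth factor, lay at 11.62 and 11.75 in E79Q and at 10.72 and 10.59 in wild type. It rose by 1.03 ± 0.06 (limma adjusted p = 2.22e-09), a 2.22-fold ratio, with no overlap between the groups. Ndrg1, a gene of stress and differentiation in epithelia, lay at 12.55 and 12.68 in E79Q and at 12.09 and 11.97 in wild type. It rose by 0.58 ± 0.06 (limma adjusted p = 6.48e-07), a 1.53-fold ratio, again without overlap.

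Other widely used hypoxia markers did not follow these genes. Bnip3, a receptor of mitophagy, was at -0.01 ± 0.06 and P4ha1, a subunit of collagen prolyl 4-hydroxylase, at 0.04 ± 0.06, with overlapping groups in both. Car9, the cell-surface carbonic anhydrase IX, and Ankrd37, an ankyrin repeat gene induced by HIF-1, were too low to test. Car9 lay at 7.25 and 7.22 in E79Q and at 7.36 and 7.39 in wild type. Ankrd37 lay at 7.30 and 7.33 in E79Q and at 7.49 and 7.46 in wild type. Both were lower in the E79Q library of each pair, at no more than 15.9 normalised counts in any library.

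**Figure D3:**
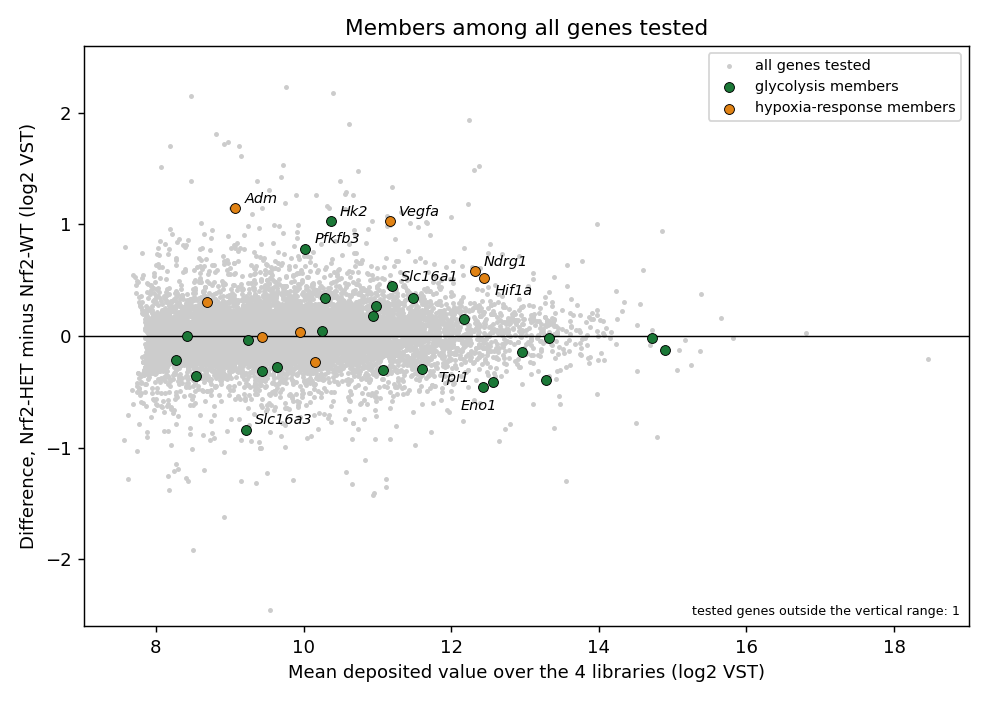
Difference between E79Q and wild-type libraries (log2 units, vertical) against the mean deposited value over the 4 libraries (log2 units, horizontal) for all 10857 genes tested in grey, with the 25 tested glycolysis members in green and the 8 tested hypoxia members in orange. Adm, Hk2 and Vegfa lie at 1.03 or above and Slc16a3 at -0.84, while the other members lie between -0.45 and 0.78, and 1 gene falls outside the vertical range.

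Further genes of the pathway moved in both directions too. Of 38 other glycolysis and glycogen genes 23 were high enough to test. Of these, 6 were called higher and 3 lower, a share near the 40.4% of all genes tested, with a median of 0.08. Among the 3 called lower, Pfkfb1 and Eno3 were high enough to test only through their wild-type libraries. The largest changes were rises of Pgm2, a phosphoglucomutase (0.38 ± 0.06), Slc2a3, the neuronal-type glucose transporter GLUT3 (0.33 ± 0.07), Gbe1, the glycogen branching enzyme (0.30 ± 0.06), and Ugp2, which makes UDP-glucose (0.26 ± 0.05). Bpgm, bisphosphoglycerate mutase, fell by 0.25 ± 0.07 and Pfkfb1, the liver-type PFKFB gene, by 0.23 ± 0.07. Pfkfb1 lay at 7.83 and 7.88 in E79Q, under the level needed for a test, and at 8.12 and 8.06 in wild type.

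Of 35 other hypoxia and HIF genes 34 were tested, and 12 were called higher and 10 lower, with a median of -0.01. Both are larger shares than the 21.5% called higher and 18.9% called lower among all genes tested. Rora, called higher, and Hif3a, not called, were high enough to test only through their E79Q libraries. Ier3, an immediate early survival gene, rose by 0.91 ± 0.07, Car12, carbonic anhydrase XII, by 0.81 ± 0.07 and Stc2, the glycoprotein hormone stanniocalcin 2, by 0.72 ± 0.06. Ddit4, an inhibitor of mTORC1 signalling, fell by 0.86 ± 0.05, Lox, the collagen cross-linking enzyme lysyl oxidase, by 0.80 ± 0.06 and Edn1, endothelin 1, by 0.73 ± 0.05. Of the HIF machinery, chosen for mention after the values were seen, Arnt, the partner of HIF-1 alpha, rose by 0.29 ± 0.05. Hif1an, the asparaginyl hydroxylase that restrains HIF, fell by 0.18 ± 0.05. Vhl, the recognition subunit for its degradation, was at -0.0020 ± 0.07 and was not called. Epas1 (-0.11 ± 0.08), Hif3a (0.20 ± 0.08) and Egln2 (-0.01 ± 0.06) were not called either. Lox is also a matrix gene, and 2 fibroblast markers moved with it. Summed over the 10 fibroblast markers, normalised counts were 199 and 213 in E79Q and 1043 and 1029 in wild type. They came mostly from Vim and Col1a1, with Lum and Dpt at the floor. Col1a1 was high enough to test only through its wild-type libraries. Col1a2 and Col3a1, too low to test, were also lower in E79Q. Dcn and Thy1, likewise too low to test, went the other way. Dcn had 10.8 and 10.7 normalised counts in E79Q and 0 and 6.02e-05 in wild type. Thy1 had 6.73 and 4.26 in E79Q and 0.218 and 0.989 in wild type. Pdgfra and Pdgfrb had overlapping groups. The 8 muscle markers summed to 288 and 273 in E79Q and to 885 and 917 in wild type, mostly from Acta2, the only one tested and called lower, with Myod1 at the floor. The 5 endothelial markers, all too low to test, summed to 12.6 and 10.7 in E79Q and to 17.4 and 23.1 in wild type. The 6 leukocyte markers summed to 376 and 414 in E79Q and to 190 and 168 in wild type, almost all from Cd68, which rose, with 4 of the 6 at the floor. The 10 keratinocyte markers summed to 143675 and 150126 in E79Q and to 148952 and 142882 in wild type, with 3 called higher and 4 lower. The 8 suprabasal markers summed to 1128 and 1156 in E79Q and to 705 and 684 in wild type, with 2 of 3 tested called higher (Sbsn and Krt13) and none at the floor. The part of these markers in the values of the glycolysis and hypoxia genes was not tested.

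Most of the rises were larger in pair 2 than in pair 1. Of the 13 members called higher, 9 (69.2%) differed more in pair 2 than in pair 1, among them Hk2, Pfkfb3, Slc16a1, Hif1a, Vegfa, Ndrg1 and Adm, and the share was 71.8% among all genes called higher. Of the 13 called lower, 6 (46.2%) differed more in pair 2, against 58.8% among all genes called lower. No test was made of these shares.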

How the data were processed

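Per the labels' protocols, TRIzol was used for RNA and an NEBNext Ultra kit for the libraries. The submitters' processing notes list the build mm9 and the tools DESeq2, DESeq 1.22.2, Salmon 0.11.3 and STAR 2.5.2b, with no roles; neither annotation nor strandedness is stated there. The series' design text describes a human cell line, goes against the title and the sample labels, and was not followed. The authors deposited variance-stabilised log2 values for 24444 genes, from 6.90 to 18.7. In each gene the sum of both replicate 1 libraries equals that of both replicate 2 libraries (largest deviation 1.31e-13), so the deposited values had been centred on the replicate number, and the numbers pair the libraries for that reason.

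Genes at least 1 above the lowest value in at least 2 libraries were tested (10857 genes, 33 of the 36 members) with limma 3.58.1 in R 4.3.3, as genotype with the replicate number as a block, a mean-variance trend and Benjamini-Hochberg adjustment over all genes tested. The block leaves 1 residual degree of freedom per gene, beside a prior of 14.6, so the errors are mostly borrowed across genes. The steps were tested on simulated data with the same centring. Normalised counts were obtained by reversing the transformation, with the table's floor of 6.98 taken as a count of 0 and the usual parametric form assumed. They rest on centred values and are approximate, and no ratio was formed under a mean of 3. Library values are given for called members with a difference of at least 0.4 and for Slc2a1, Gapdh, Ldha and Hif1a, and for genes too low to test. From each further list the 6 called genes with the largest change are named. Promoter windows are from RefSeq, build GRCm38.p6, matched by symbol for 35 members. Ndrg1 had no match. RefSeq gave a chromosome for 10555 tested genes. The members, lists, tests and alternatives were chosen with earlier results of these data known.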

Additional observations from a re-analysis of the deposited data

How the results depend on the processing

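The members were recomputed without the replicate block, with no or a stricter filter, with median centring or quantile normalization, with robust empirical Bayes, without the variance trend, on inverted counts and without each library. In all of these the members called higher numbered 12 or 13 and those called lower 11 to 13. The stricter filter left 29 members to test. It removed Pdk2, not called before, and Pfkfb4, Ldhb and Egln3, whose calls were lost for that reason. Without the replicate block 3122 genes were called higher and 2882 lower, against 2333 and 2055 with it, and 0 hypoxia members were called lower in limma (1 at an unadjusted p under 0.05). Among the members the block moved only the calls of Pfkp (adjusted p = 0.0594) and Egln1 (adjusted p = 0.0628), and 11 other glycolysis genes were called higher without it. With no filter 5 other glycolysis genes were called lower, and with the stricter filter, which leaves 14 of them to test, 0 were (limma, also 0 at an unadjusted p under 0.05). The median of the hypoxia members was 0.17 with no filter, which adds its low members. It was 0.52 with the stricter filter, which removes Egln3, and 0.55 on inverted counts. Gpi1 was not called without the variance trend (adjusted p = 0.0543). Pdk2 and Bnip3, neither of them called, changed sign: Pdk2 was at -0.0165 after median centring and between -0.00055 and 0.0035 without 1 library, and Bnip3 lay between -0.0262 and 0.0148 without 1 library. Runs without 1 library used genotype alone. Because the values mirror each other within a pair, these runs are a weak check, and 2 pairs limit the precision throughout.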

Other observations

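Low genes of the further lists were left out of the tests, and 2 of them, chosen after their values were seen, are given here. Their groups did not overlap, which also held for 79.2% of all genes tested. Angptl4, a secreted lipase inhibitor and hypoxia target, had 8.13 and 3.63 normalised counts in E79Q cells and 37.9 and 51.0 in wild-type cells. Pdk4, a pyruvate dehydrogenase kinase linked to fatty acid use, had 6.53 and 9.27 normalised counts in E79Q cells and 31.7 and 26.3 in wild-type cells. These counts are approximate and were not tested.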
